A study of Homo sapiens with 3 samples.

Results

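The cells described here are 536 collagen-rich, non-dividing cells of chambered cardiac organoids (CCOs) at day 21 (D21), the cells that carry the label cardiac fibroblast-like. They were 536 of the 1946 D21 cells that passed the limits on cells, or 27.5% (exact 95% binomial interval 25.6 to 29.6%), and 8188 cells were kept over all days. Each was chosen on its own counts of unique molecular identifiers (UMIs, 1 per captured RNA molecule). COL1A1, COL1A2 and COL3A1 together had to make up at least 0.2% of the UMIs of the cell, and the sarcomere genes TNNT2, MYH6, MYL7 and TTN together less than 1%. No UMI of WT1, TBX18 or CDH5 was allowed, KDR had to stay under 3 UMIs, and 6 genes of dividing cells (MKI67, TOP2A, CENPF, TPX2, NUSAP1 and UBE2C) together under 8 UMIs per 10000. Because these counts set the membership and all other genes were read in the same cells, every difference given here is a description, and no test was run.

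CCOs are hollow, beating aggregates made from human pluripotent stem cells, here from H7, an established human embryonic stem cell line, with no genetic change and no disease treatment. Wnt signalling was first switched on with CHIR99021 and then blocked with IWP-2 in flat culture, after which the cells were aggregated in Matrigel and kept until D14 in a growth medium (CGM) holding thrombin, cardiotrophin-1, EGF, FGF-2, Wnt-3A and EDN1, and from D14 in a stirred flask of RPMI/B27 without these factors. Dissociated CCOs gave 1 droplet library of RNA 3' ends at each of D8, D14 and D21, so that D8, D14 and D21 differ in age, in library and, for D21, in medium, and these cannot be told apart. All cells come from 1 line, and with 1 library per day no spread between organoids is known: the intervals below are 95% intervals for counting error only.

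Cardiac fibroblasts are the connective tissue cells of the heart wall. They lay down fibrillar collagens, proteoglycans and elastic fibre proteins, carry the receptors for platelet-derived growth factor, and in the embryo descend mostly from the epicardium, the outer layer of the heart, whose cells use the transcription factors WT1, TBX18 and TCF21. After injury or stretch they can turn on contractile genes such as ACTA2 and become myofibroblasts.

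The 536 cells held 7244413 UMIs in all, with 5087 to 46158 UMIs per cell and a median of 12527, a median of 3289 genes and a median mitochondrial share of 3.78%. Kept cells over all 3 libraries numbered 2657, 3585 and 1946 of 3563, 4615 and 9149 barcodes at D8, D14 and D21, so the D21 library lost the largest share of its barcodes to the limits. Of the D21 barcodes, 111 carried a barcode sequence that another library also had, 25 of them among the kept cells, and without those cells 556 genes in place of 550 were 2-fold higher. The other 1410 kept D21 cells were divided, by limits on the same and on hepatic genes, into 78 collagen-rich dividing cells (dividing stroma), 204 collagen-rich non-dividing cells with a WT1 or TBX18 UMI (WT1/TBX18 stroma), 28 others of that kind with 3 or more KDR UMIs (KDR stroma), 637 with 1% or more sarcomere UMIs (cardiomyocyte gate), 40 with a CDH5 UMI (endothelial gate), 281 with little collagen and at least 0.5% of UMIs from APOA1, APOA2 and TTR (hepatic gate) and 142 remaining cells. Stroma is used here only for collagen-rich cells that met the sarcomere and CDH5 limits.

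The collagen share of the chosen cells ran from 0.2% to 1.52% with a median of 0.431%, against a median of 0.0144% in the other kept D21 cells. The lowest chosen cell was at 0.200088% and the nearest cell that failed on collagen alone at 0.199099%, with 24 chosen cells and 17 others within 10% of the limit. Their sarcomere share had a median of 0.161% and reached 0.957%, and the nearest cell to fail on this limit alone was at 1.04%. The collagen limit alone kept out 367 cells that met every other condition, and the WT1 and TBX18 limit 172. The limit on dividing genes kept out 58 such cells, the sarcomere limit 35, the KDR limit 28 and the CDH5 limit 3.

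Markers outside the rule were then read beside the label. The members were chosen with earlier results of these data known, so this is no independent check. Of the 10 markers of cardiac fibroblasts 3 are the collagens of the rule and were left out, and the 7 others (LUM, C7, DCN, PDGFRA, TCF21, THY1 and POSTN) summed to 2694 UMIs per 1000000 (CPM), against 2471 CPM in the WT1/TBX18 stroma, 266 CPM in the cardiomyocyte gate, 801 CPM in the endothelial gate and 35.8 CPM in the hepatic gate. At least 3 of these 7 were seen in 319 members (59.5%) when every cell was thinned to 4000 UMIs, in 128 of the 204 WT1/TBX18 stroma cells and in 35 of the 637 cardiomyocyte gate cells. They were seen in 0 of 281 hepatic gate cells, a class chosen for little collagen, which allows a share of up to 1.07%. The members as a class thus carried these markers, while 12 of them had none of the 7 after thinning. The markers were not particular to the members. Their sum was 2292 CPM in the dividing stroma, 1912 CPM in the KDR stroma and 1257 CPM in the remaining cells.

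Over all genes, the members stood apart in 2 directions. Of 8742 genes at 10 CPM or more in the higher group, 550 (6.29%) were at least 2-fold higher in the members than in the other 1410 cells and 890 (10.2%) at least 2-fold lower, and the median log2 difference of all 8742 was 0.05. The 15 genes furthest above, among genes at 100 CPM or more, were SRPX, MGP, COL9A3, LRRC17, DCN, MFAP4, BMP4, POSTN, C7, FAM110B, PCOLCE, CDC42EP5, BAALC, IGFBP3 and LSAMP. Those furthest below were liver genes, namely HP, ITIH2, RBP4, F2, TF, ALB, TTR, ASGR2, HPX and APOC3, all abundant in the hepatic gate.

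These counts depended on what the members were set against. Of the genes past 2-fold, 38.2% were higher in the members. With each class of the other cells given the same weight the numbers were 124 higher and 611 lower, 16.9% of them higher. With a mitochondrial limit of 5% they were 28 higher and 384 lower, 6.80% of them higher, and at that limit other cells were compared, since median mitochondrial shares were 8.40% in the cardiomyocyte gate and 7.82% in the hepatic gate. Cardiomyocyte and hepatic gate cells made up 65.1% of the others at 10% and 15.5% at 5%, while the 3 other stromal classes made up 22.0% and 55.4%. With those 3 stromal classes left out, 935 genes were higher and 1070 lower, 46.6% of them higher.

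**Figure D1:**
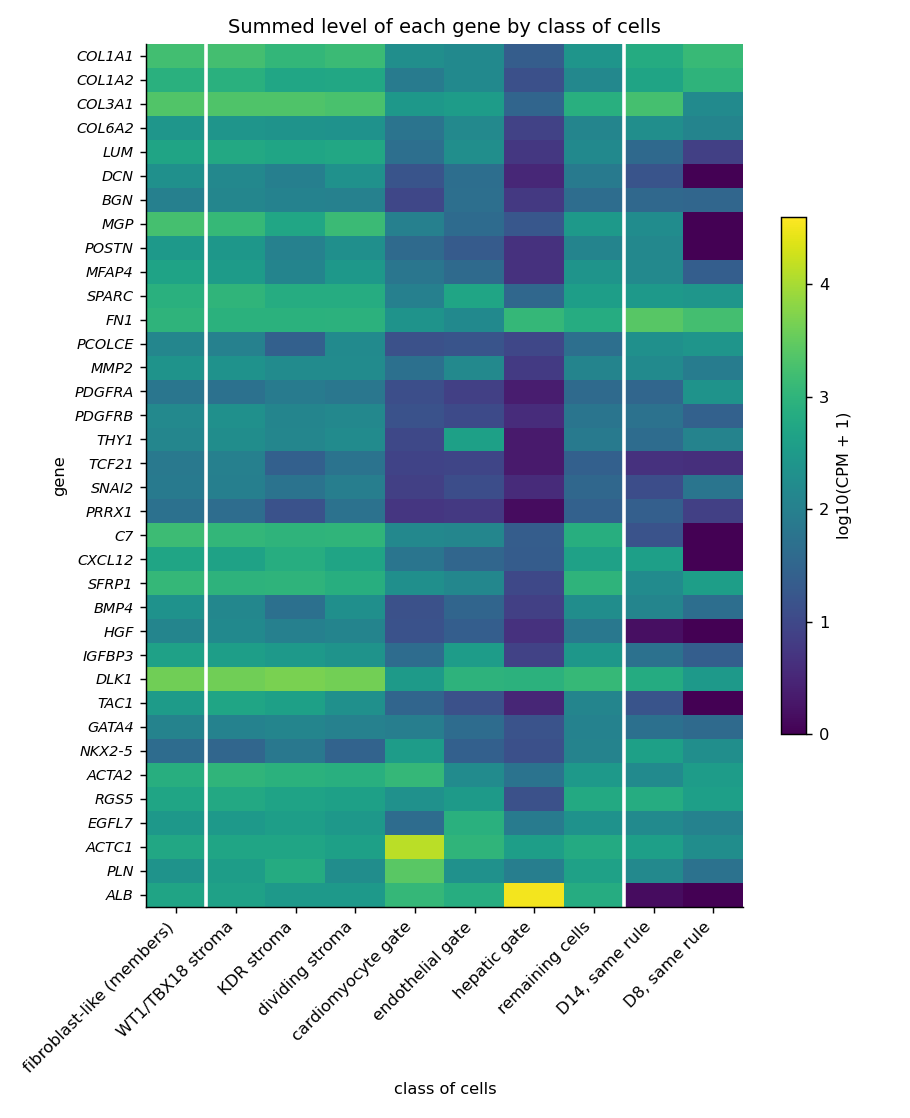
Colour gives the summed level of 36 genes (rows) in each class of kept D21 cells and, right of the second white line, in the D14 and D8 cells that met the same rule, as log10(CPM + 1). The members (left) and the WT1/TBX18, KDR and dividing stroma have similar colours in most rows, while ACTC1 and PLN are brightest in the cardiomyocyte gate and ALB in the hepatic gate.

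The collagens of the rule are the building blocks of stiff interstitial fibres, COL1A1 and COL1A2 as the chains of collagen I and COL3A1 as that of collagen III. COL3A1 had a summed level of 2274 CPM (2239 to 2309) in the members and 735 to 9680.3 CPM per cell with a median of 2117. COL1A1 was at 1602 CPM (1573 to 1632) with 0, 1402 and 7564 CPM in the lowest, median and highest cell, and COL1A2 at 842 CPM (821 to 863) with 0, 700.3 and 3835 CPM. Every member thus had COL3A1, while COL1A1 was seen in 97.8% and COL1A2 in 87.1% of them before thinning. In the hepatic gate COL3A1 was at 30.3 CPM and COL1A1 at 21.7 CPM.

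Other collagens followed. Of 9 associated collagen genes that reached 10 CPM, 8 were at least 2-fold higher in the members and 0 lower, with a median log2 difference of 1.56, or 0.57 when only cells with at most 5% mitochondrial UMIs were kept. This and the later lists are read beside the 6.29% of all genes that were higher and the 10.2% that were lower. COL6A2, part of the beaded microfibrils around cells, was at 261 CPM (249.7 to 273) against 88.6 CPM (84.8 to 92.4) in the other cells, a log2 difference of 1.56 (1.47 to 1.65). COL6A3 of the same fibrils differed by 1.69 (1.54 to 1.84), COL5A1, which seeds collagen I fibres, by 1.54 (1.39 to 1.68), and the fibre-binding COL14A1 by 1.82 (1.63 to 2.02). The basement membrane list, whose laminins and collagen IV line muscle and vessels, did not share this: 0 of 15 genes were higher, LAMA2, HSPG2 and LAMA4 were lower, and the median was -0.13.

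Small leucine-rich proteoglycans, which coat and space collagen fibres, separated the members widely from the cardiomyocyte and hepatic gates but not cell by cell. DCN (decorin) was at 206 CPM (195 to 216) in the members, 46.3 CPM in all other D21 cells and 14.4 CPM in the cardiomyocyte gate. Per member it was 0 CPM in the lowest, 89.6 in the median and 4705 CPM in the highest cell. LUM (lumican) had a summed level of 484 CPM (468 to 500.4) against 160.0 CPM (155 to 165), with 0, 220.1 and 5556 CPM. LUM was not higher in the members than in the WT1/TBX18 stroma. There it was at 598 CPM in the 172 cells with under 3 KDR UMIs and 651 CPM in the other 32. After thinning LUM was seen in 57.8% of members and 1.07% of hepatic gate cells, and before thinning in 73.3% and 9.61% at median depths of 12527 and 22062 UMIs. ASPN and FMOD of the same family were seen in 12.3% and 10.3% of thinned members and 0% and 1.78% of hepatic gate cells, with log2 differences of 3.48 (3.19 to 3.80) and 2.24 (1.98 to 2.5). In the wider list of proteoglycan and hyaluronan genes, which also holds HAS2, VCAN and SDC2, 8 of 11 were higher and 1 lower. The median of that list was 1.54, or 0.52 with the 5% mitochondrial limit. The lower gene was GPC3, a surface proteoglycan, at 336 CPM against 3612 CPM in the hepatic gate.

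Matrix glycoproteins and elastic fibre genes gave the largest group: 17 of 22 were higher, FBN2 and NPNT were lower, and the median was 1.38, or 0.53 with the 5% mitochondrial limit. MGP, an inhibitor of calcification, had a summed level of 1721 CPM (1691 to 1752) against 318 CPM (311 to 326). Its values per member were 0 CPM in the lowest, 236 in the median and 24812 CPM in the highest cell. POSTN (periostin, a matrix protein of valves and of activated fibroblasts) was at 308 CPM (295 to 321) against 75.5 CPM (72.1 to 79.1), and MFAP4, which binds elastic fibres, at 471 CPM (455 to 487) against 109 CPM (105 to 114). SPARC, a collagen-binding protein, was found in 90.5% of thinned members at 843 CPM (822 to 864), and in 7.83% of hepatic gate cells. The fibrillins went opposite ways, with FBN1 at 154 against 46.4 CPM and FBN2 at 26.9 against 126 CPM, with 295 CPM in the cardiomyocyte gate. Fibronectin (FN1) was no marker of the members, at 997 CPM against 1169 CPM in the hepatic gate.

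Enzymes that make collagen ready for the fibre were higher with it. Of 18 such genes 12 were past 2-fold and 0 lower, with a median of 1.17, or 0.31 with the 5% mitochondrial limit. SERPINH1 (HSP47), the collagen chaperone of the endoplasmic reticulum, was at 642 CPM (623 to 660.3) against 253 CPM (246 to 259), PCOLCE, which speeds removal of the procollagen end, at 129 CPM (121 to 137) against 35.1 CPM (32.8 to 37.6), and LOX, which crosslinks fibres, at 11.6 CPM (9.25 to 14.4) against 2.66 CPM (2.05 to 3.41). LOX thus sat near the filter of 10 CPM, in 2.80% of thinned members and 0.356% of hepatic gate cells. Among proteases and their inhibitors 6 of 14 were higher and 1 lower, among them MMP2 at 234 against 76.4 CPM and TIMP1 at 2113 against 789 CPM.

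**Figure D2:**
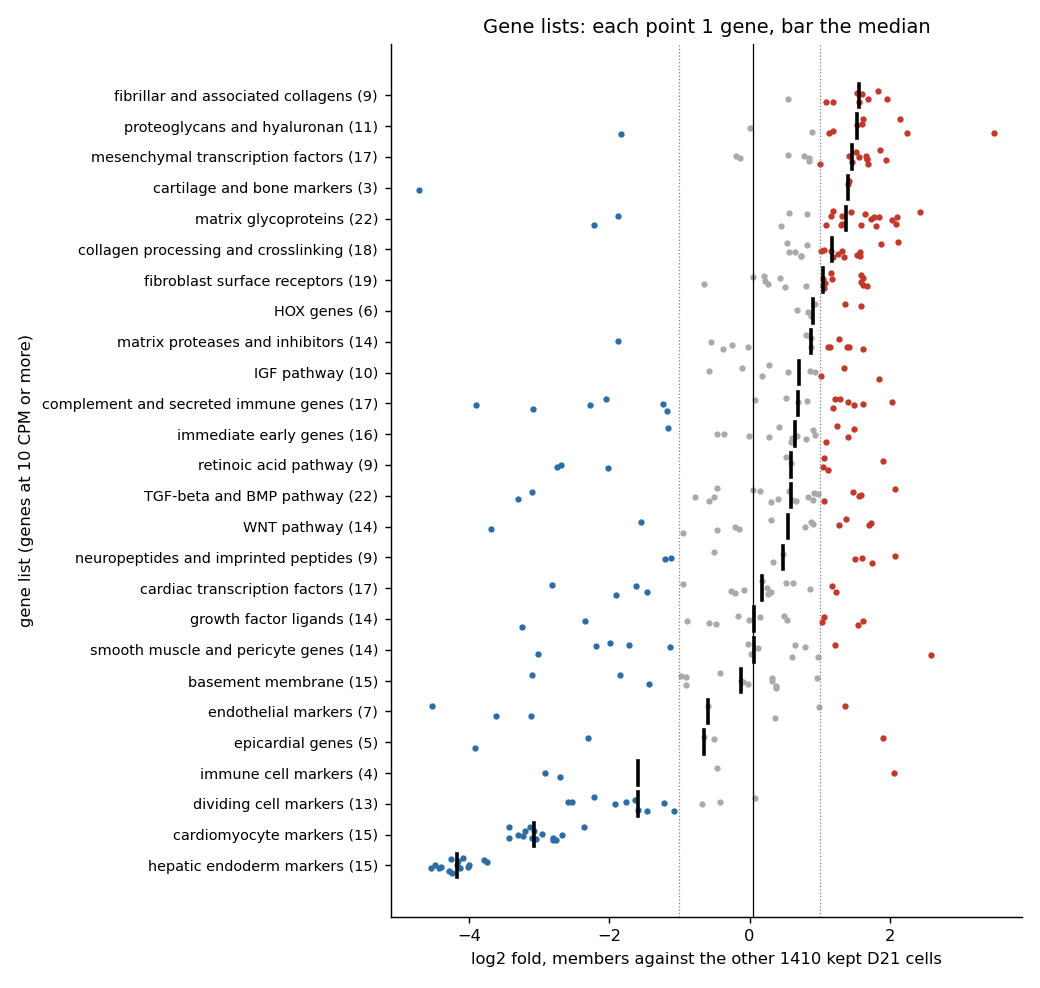
Each point is 1 gene at 10 CPM or more, placed by its log2 difference between the 536 members and the other 1410 kept D21 cells, in rows of the gene lists with at least 3 such genes, their number in brackets, and the thick bar is the median of the list. Red points are at least 2-fold higher and blue points at least 2-fold lower, grey points lie between, and the solid line marks the median of all 8742 genes at 0.05. Matrix lists sit on the right, with medians of 1.56, 1.54 and 1.38 for collagens, proteoglycans and glycoproteins, and the cardiomyocyte and hepatic lists on the left at -3.08 and -4.17.

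The receptors that define fibroblasts were present at low counts. 11 of 19 receptor genes were higher in the members, 0 lower, with a median of 1.05, which was 0.12 with the 5% mitochondrial limit. PDGFRA, the receptor most used to sort cardiac fibroblasts, was at 62.3 CPM (56.6 to 68.3) against 20.2 CPM (18.5 to 22.1) and was seen in 50.4% of members before and 20.9% after thinning, against 3.2% and 0% of hepatic gate cells. PDGFRB was at 146 CPM (137 to 155), the collagen receptor DDR2 at 40.3 CPM (35.8 to 45.2) and THY1 at 126 CPM (118 to 134). In the 172 WT1/TBX18 stroma cells with under 3 KDR UMIs, PDGFRB was at 196 CPM and THY1 at 162 CPM. THY1 did not point to the members alone, since the endothelial gate had 409 CPM.

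Mesenchymal transcription factors had 11 of 17 genes higher, 0 lower, and a median of 1.45, or 0.31 with the 5% mitochondrial limit. TCF21, the factor that commits epicardial cells to the fibroblast fate, was at 72.2 CPM (66.1 to 78.7) in the members, 7.41 CPM in the cardiomyocyte gate and 1.15 CPM in the hepatic gate. It was seen in 35.1% of members before and 19.2% after thinning, against 2.14% and 0.356% of hepatic gate cells, with 0, 0 and 1799 CPM in the lowest, median and highest cell. SNAI2 was at 79.0 CPM (72.6 to 85.7) against 25.1 CPM, PRRX1 at 50.7 CPM (45.6 to 56.1) against 13.1 CPM and TWIST1 at 25.8 CPM (22.2 to 29.8) against 9.43 CPM. SOX9, a factor of cartilage and valve cells, was at 49.3 CPM against 35.5 CPM in the hepatic gate.

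Factors of the heart field were split. GATA4 was at 113 CPM (105 to 121), against 93.1 CPM in the cardiomyocyte gate and 13.8 CPM in the hepatic gate, and per member at 0, 91.6 and 698 CPM. GATA6 was at 47.9 CPM (43.0 to 53.2) and HAND2 at 139 CPM (131 to 148). By contrast NKX2-5 was at 41.5 CPM against 348 CPM in the cardiomyocyte gate, IRX4, HEY2 and TBX5 were likewise lower, ISL1 and GATA5 were higher, and the median of the 17 genes of the list was 0.18. HOXB6 and HOXB7, genes of regional identity, were higher than in the other cells by 1.37 (1.07 to 1.66) and 1.59 (1.31 to 1.88).

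Promoter sequence was at hand in RefSeq for 9 of the 20 genes that were rule collagens, furthest above the other cells, LUM or TCF21. The 150 bases before the start of C7 and TCF21 are shown because these are the complement gene and the fibroblast factor that the results turn on, and because they alone of the 9 held the letters AGATAA or their reverse TTATCT, a form of the core read by GATA factors, on either strand. Of all 35116 promoter windows of this length in the same RefSeq set (build GRCh38.p14) 5.17% held them. The motif was chosen after the sequences were seen, other forms of the core were not searched, and a match is no evidence of binding. Capitals mark it, and both stretches are on the plus strand, at chr5:40909347-40909496 for C7 and chr6:133888963-133889112 for TCF21, with the match starting 14 and 31 bases before the gene.
C7: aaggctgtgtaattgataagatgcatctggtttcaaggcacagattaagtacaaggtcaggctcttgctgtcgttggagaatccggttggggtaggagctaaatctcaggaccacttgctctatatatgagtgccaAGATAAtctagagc
TCF21: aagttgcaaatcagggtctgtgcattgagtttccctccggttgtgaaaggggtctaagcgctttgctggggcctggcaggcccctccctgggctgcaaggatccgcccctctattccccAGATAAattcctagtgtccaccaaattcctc

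C7, a late component of the complement cascade, had a summed level of 1437 CPM (1409 to 1465) in the members against 353 CPM (345 to 360.2) in the other D21 cells, a log2 difference of 2.03 (1.99 to 2.07). Per member it was 0 CPM in the lowest, 1209 in the median and 5936 CPM in the highest cell. It was seen in 80.6% of members and 8.19% of hepatic gate cells after thinning, and in 87.9% and 27.8% before. In the WT1/TBX18 stroma C7 was at 1209 CPM in the 172 cells with under 3 KDR UMIs and 757 CPM in the other 32. The complement and secreted immune list as a whole was mixed, with 7 of 17 genes higher, 6 lower and a median of 0.68. Over all genes the shares were 6.29% and 10.2%. CXCL12, a chemokine that guides blood and vessel cells, was at 514 against 167 CPM and the antiviral IFITM3 at 1875 against 705 CPM, while C3 was at 4.83 CPM against 240.0 CPM in the hepatic gate.

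Secreted regulators of the Wnt and BMP pathways were also among the higher genes. SFRP1, a soluble Wnt antagonist, was at 1140.0 CPM (1116 to 1165) against 351 CPM (343 to 358), and RSPO3, a Wnt enhancer, at 45.4 CPM (40.6 to 50.6) against 13.7 CPM (12.2 to 15.2). Over the pathway lists, 4 of 14 WNT genes and 5 of 22 TGF-beta and BMP genes were higher, 2 and 2 were lower, and the medians were 0.55 and 0.59. Of all genes 6.29% were higher and 10.2% lower. BMP4, a ligand, had 223 CPM (212 to 234) against 52.7 CPM (49.8 to 55.7) and was seen in 35.3% of thinned members and 1.78% of hepatic gate cells, while the ligand BMP7 was at 2.90 CPM against 71.3 CPM in the cardiomyocyte gate. INHBA, the activin subunit, was at 94.7 against 31.4 CPM.

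Among growth factors, 4 of 14 were higher, 2 lower, and the median of 0.07 was near that of all genes. The shares over all genes were 6.29% higher and 10.2% lower. HGF, a mesenchymal ligand for epithelial MET, was at 121 CPM (113 to 129) against 41.1 CPM (38.5 to 43.8), PTN at 546 against 178 CPM and its relative MDK at 2383 against 1140.4 CPM. HGF was at 151 CPM in the WT1/TBX18 stroma and 118 CPM in the dividing stroma, and MDK at 1862 and 2060 CPM. IGFBP3, IGFBP6 and IGFBP2, which bind insulin-like growth factors, were the 3 of 10 IGF genes past 2-fold, IGFBP3 at 428 CPM (413 to 444) against 119 CPM (115 to 124). IGF2 itself was at 2076 CPM in the members and 7217 CPM in the hepatic gate. DLK1, an imprinted gene for a surface protein of immature mesenchyme, was at 3924 CPM (3878 to 3969.7) against 1381 CPM (1366 to 1396) with 0, 2529.6 and 35339 CPM in the lowest, median and highest member. TAC1, which encodes the neuropeptide substance P, was at 330.5 CPM (317 to 344) against 108 CPM (104 to 113), yet was seen in 23.7% of thinned members and 0.356% of hepatic gate cells, with a highest cell of 9560.4 CPM.

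Markers of other cell types were then read in the members as whole lists. Of the 7 epicardial markers WT1, TBX18 and BNC1 had no UMI, WT1 and TBX18 by the rule, UPK3B was at 0.690 CPM and ALDH1A2 at 1.52 CPM, and SEMA3D, a guidance cue, was the 1 marker at least 2-fold higher than in the other cells, at 20.7 CPM (17.5 to 24.3) against 5.54 CPM (4.63 to 6.57). KRT19, an epithelial keratin, was at 40.4 against 201 CPM.

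Of the smooth muscle markers the actin gene ACTA2 was at 756 CPM (736 to 776), against 1173 CPM in the cardiomyocyte gate, and TAGLN at 291 CPM (279 to 304), but MYH11, the myosin of mature smooth muscle, was at 6.49 CPM (4.77 to 8.63) and seen in 2.61% of thinned members and 0% of hepatic gate cells. The 6 markers summed to 1126 CPM in the members, 141 CPM in the hepatic gate and 1911 CPM in the cardiomyocyte gate. The pericyte list summed to 679 CPM against 835 CPM in the WT1/TBX18 stroma, most of it from RGS5 at 503 CPM (486 to 519), while ABCC9 had no UMI in the members.

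Of the 7 endothelial markers CDH5 and KDR are genes of the rule and were left out. The others summed to 294 CPM against 1717 CPM in the endothelial gate, most of it from EGFL7 at 282 CPM (270.3 to 295). Outside that sum, RAMP2, part of an adrenomedullin receptor, was at 210.1 CPM (199.7 to 221) and CLDN5 at 0.552 CPM. Neural markers summed to 146 CPM, of which STMN2, a tubulin-binding gene of growing neurons, gave 145 CPM (137 to 154), with SOX10 and ELAVL4 without a UMI. Cartilage, immune and adipocyte lists summed to 13.5, 7.45 and 0.138 CPM. PTPRC of blood cells was at 0.138 CPM and COL2A1 of cartilage at 0.414 CPM.

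The other lists read in the members were smaller or mixed, beside 6.29% of all genes higher and 10.2% lower. Of the retinoic acid genes 4 of 9 were higher and 3 lower, with the retinoid-binding CRABP1 and CRABP2 among the higher ones, CRABP2 at 632 against 302 CPM. Of the immediate early genes, which also answer to cell dissociation, 4 of 16 were higher and 1 lower, with PHLDA1 among the higher ones at 585 against 208 CPM and FOS within 2-fold at 265 against 165 CPM, and whether dissociation played a part was not tested. Of the neuropeptide and imprinted genes 4 of 9 were higher and 2 lower, and of the HOX genes 2 of 6 were higher. In the smooth muscle and pericyte list 2 of 14 were higher, NOTCH3 and ACTG2, and 5 lower, and in the epicardial list 1 of 5 was higher and 2 lower. Dividing cell genes outside the rule were lower in 10 of 13, with a median of -1.60, and endothelial genes in 3 of 7. The limits of the rule put the dividing stroma and the endothelial gate among the other cells, so neither count is a separate reading of the members. The cartilage, neural, immune and adipocyte lists had 3, 2, 4 and 2 genes at 10 CPM or more, of which 2, 1, 1 and 0 were higher and 1, 1, 2 and 1 lower.

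RNA of the 2 most abundant other lineages was present in the members at a low level. All 15 cardiomyocyte genes and all 15 hepatic genes tested outside the rule were at least 2-fold lower in the members than in the other cells, with medians of -3.08 and -4.17, yet neither list was at 0. The levels of 10 hepatic genes in the members were 1.45 to 2.29% of those in the hepatic gate, for example ALB at 488 CPM against 33726 CPM and APOA2 at 585 against 32146 CPM. ALB was at 432 CPM in the WT1/TBX18 stroma, 742 CPM in the endothelial gate and 1142 CPM in the cardiomyocyte gate, so each class held some. The 6 members with at least 0.5% of UMIs from APOA1, APOA2 and TTR held 39.0% of the UMIs of these 10 genes, and without them ALB was at 355 CPM and SERPINA1 at 216 in place of 488 CPM. Levels of 6 sarcomere genes were 3.93 to 6.23% of those in the cardiomyocyte gate. RNA of other cells caught in the same droplet, as free RNA or with a further cell, and RNA made by the members could not be told apart here. No doublet caller was run.

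The members were then set beside the WT1/TBX18 stroma, 204 cells with the same limits on collagen, sarcomere, CDH5 and dividing genes but with at least 1 UMI of WT1 or TBX18, where a cell without such RNA and a cell in which it was not caught cannot be told apart. They had a median of 13903 UMIs against 12527. No KDR limit applied to them, and 32 of the 204 had 3 or more KDR UMIs, so the counts and the genes past 2-fold are given also for the 172 that differ from the rule in WT1 or TBX18 alone, a comparison added after seeing the data. Of 8200 genes at 10 CPM or more, 36 (0.439%) were at least 2-fold higher in the members and 56 (0.683%) at least 2-fold lower, with a median log2 difference of -0.02. Against the 172 cells 40 were higher and 29 lower, so the share of calls on the higher side was 58.0% in place of 39.1%.

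At 100 CPM or more, 6 of 1388 genes were past 2-fold against the 204 cells. ADAMTS9, a protease of versican, was at 112 CPM against 40.0 CPM, a log2 difference of 1.48 (1.21 to 1.77), and 1.26 (0.99 to 1.56) against the 172 cells. SRPX was at 363 CPM against 168 CPM, a log2 difference of 1.11 (0.98 to 1.25), and 1.00 (0.86 to 1.15) against the 172. The liver gene AHSG was at 196 CPM against 82.8 CPM, a log2 difference of 1.24 (1.05 to 1.44), but without the 6 members rich in hepatic RNA it was at 85.3 CPM. The 3 lower genes did not stay past 2-fold without the KDR-rich cells. TFPI2, a protease inhibitor, was at 283 CPM against 707 CPM, a log2 difference of -1.32 (-1.41 to -1.23), and -0.18 (-0.29 to -0.05) against the 172 cells, since it was at 319 CPM in these and 2295 CPM in the 32. RAMP1 and PAM differed by -0.84 (-1.03 to -0.64) and -0.49 (-0.67 to -0.30) from the 172 cells.

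Matrix genes were then read in the same comparison. COL1A1 differed by -0.04 (-0.09 to 0.01) on the log2 scale, COL3A1 by 0.11 (0.07 to 0.15) and LUM by -0.33 (-0.41 to -0.25), and 0 of 21 matrix glycoproteins were past 2-fold, with a median of 0.17, beside the 0.439% and 0.683% of all genes. TCF21 was lower in the members short of 2-fold, at 72.2 CPM (66.1 to 78.7) against 101 CPM (90.4 to 113), and differed by -0.62 (-0.83 to -0.40) from the 172 cells. Past 2-fold and higher in the members were ASPN by 1.48 (1.11 to 1.91), FMOD by 1.22 (0.82 to 1.69) and OSR1, a factor of embryonic mesenchyme, by 1.14 (0.56 to 1.87), with 1.21 (0.84 to 1.65), 1.02 (0.60 to 1.5) and 0.83 (0.25 to 1.55) against the 172. Past 2-fold and lower were COL15A1 by -1.59 (-2.21 to -0.99) and the secreted pentraxin PTX3 by -3.23 (-4.50 to -2.32), with -1.62 (-2.26 to -0.97) and -3.45 (-4.72 to -2.53) against the 172, PTX3 from 1.38 CPM in the members.

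The same rule applied to the earlier libraries picked 722 of 3585 kept D14 cells (20.1%, 18.8 to 21.5%) and 23 of 2657 kept D8 cells (0.866%, 0.550 to 1.30%). The D14 cells had less collagen, a median of 0.273% of UMIs against 0.431%, at similar depth, 11564 against 12527 UMIs. Of 9123 genes at 10 CPM or more, 456 (5.00%) were at least 2-fold higher in the D21 members and 1137 (12.5%) at least 2-fold lower, with a median log2 difference of -0.20, so single values are read against that shift. With median-of-ratios scaling, which moves all values by 0.15, the counts were 550 and 917, and 37.5% of the calls were higher in place of 28.6%.

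Matrix genes were higher at D21 gene by gene but not as a block. C7 was at 13.8 CPM (11.5 to 16.5) at D14 and 1437 CPM (1409 to 1465) at D21, a log2 difference of 6.69 (6.44 to 6.97). LUM went from 36.2 CPM (32.4 to 40.4) to 484 CPM (468 to 500.4), DCN from 14.7 CPM (12.3 to 17.5) to 206 CPM (195 to 216) and MGP from 174 CPM (166 to 183) to 1721 CPM (1691 to 1752). COL1A1 was at 677 CPM (660.4 to 695) and 1602 CPM (1573 to 1632), while COL3A1, at 1785 CPM (1757 to 1813) and 2274 CPM (2239 to 2309), was within 2-fold, both genes being part of the rule. Of the lists, 6 of 11 collagens, 7 of 11 proteoglycans and 14 of 21 glycoproteins were higher and 2, 2 and 3 lower, with medians of 1.33, 1.54 and 1.15. FN1, HAPLN1 and THBS1, proteins of the provisional matrix, were lower, FN1 at 997 against 2579.6 CPM, HAPLN1 at 50.5 against 290.4 CPM and THBS1 at 38.4 against 167 CPM. Of 18 collagen-processing genes 2 were higher and 1 lower, with a median of 0.36. The shares over all genes were 5.00% higher and 12.5% lower.

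Transcription factors differed as well. TCF21 was at 3.49 CPM (2.37 to 4.95) at D14 and 72.2 CPM (66.1 to 78.7) at D21, SNAI2 was 11.1 CPM at the earlier day and 79.0 CPM at the later, PRRX1 23.8 and 50.7 CPM, and of 19 mesenchymal factors 11 were higher at D21 and 2, PRRX2 and SNAI1, lower, beside 5.00% and 12.5% of all genes. Factors of cardiac progenitors were lower: ISL1 was at 167 CPM (159 to 176) and 17.1 CPM (14.2 to 20.4), NKX2-5 at 415 CPM (402 to 428) and 41.5 CPM (37.0 to 46.5), and HAND2 at 596 CPM (579.9 to 612) and 139 CPM (131 to 148), while GATA4 was higher at D21, 49.6 against 113 CPM. The 8 genes furthest below, among genes at 100 CPM or more, were LIX1, IRX3, PRTG, SORBS2, HMGA1, HLA-B, SOX11 and KRT19, several of them genes of embryonic tissue, with HMGA1 at 26.8 CPM against 335 CPM, a log2 difference of -3.64 (-3.86 to -3.43).

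Secreted and contractile genes also differed by day. HGF was near absent at D14, at 0.562 CPM (0.183 to 1.31) from 5 UMIs, against 121 CPM (113 to 129) at D21. SFRP1 was at 163 and 1140.0 CPM, DLK1 at 664 and 3924 CPM, TAC1 at 15.0 and 330.5 CPM and ACTA2 at 156 and 756 CPM. ID1, a target of BMP signals, was lower at D21, 1476 against 365 CPM, and of 23 genes of its pathway list 7 were lower and 2 higher, beside 12.5% and 5.00% of all genes. Of the 8 genes furthest above 7 were hepatic (AFP, AHSG, ALB, AMBP, SERPINA1, APOA2 and APOC3), of which AFP and AHSG had 0 UMIs in the D14 cells, or at least 588-fold and 582-fold higher at D21 when 3 UMIs are taken as the limit of a count of 0. All 15 hepatic genes tested were higher, in a library where the hepatic gate held 14.4% of kept cells against 0.474% at D14. With genes 5-fold or more higher in the hepatic or cardiomyocyte gate than in the members left out, an alternative added after seeing the data, 395 genes were higher and 968 lower.

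**Figure D3:**
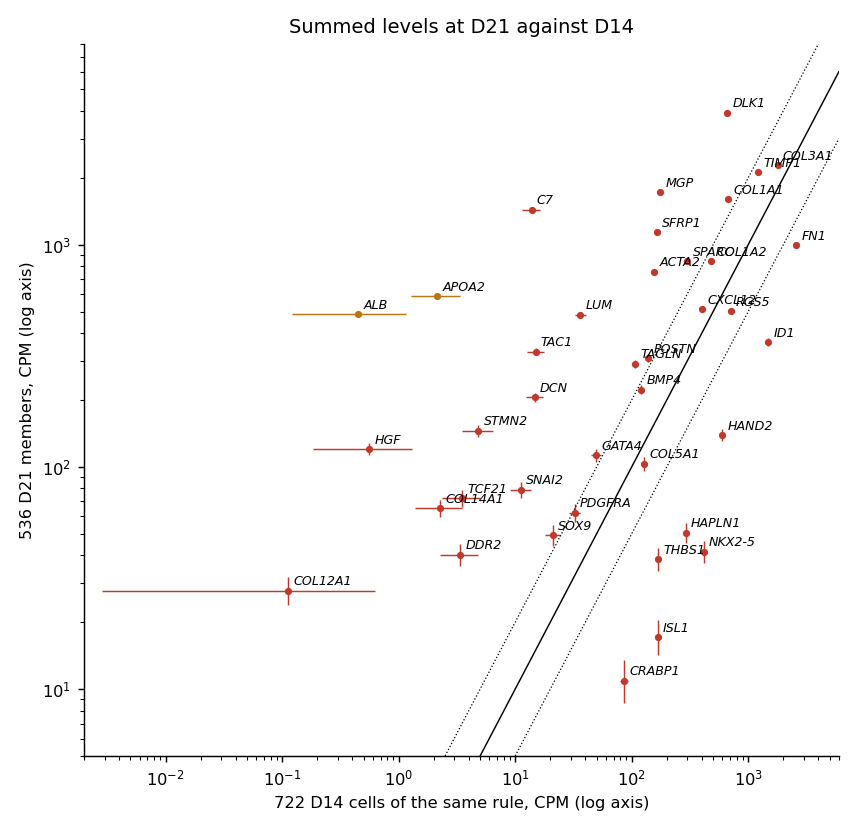
Each point is 1 gene, with its summed level in the 722 D14 cells of the same rule on the x axis and in the 536 D21 members on the y axis, both in CPM on log axes, and bars give 95% counting intervals. The solid line marks equal levels and dotted lines 2-fold. C7, LUM, DCN, TCF21 and HGF lie above the upper dotted line, ISL1, NKX2-5, HAND2 and FN1 below the lower one, and the hepatic genes ALB and APOA2 are in amber.

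At D8 only 23 cells met the rule, with 312920 UMIs in all, so single genes rest on few counts. COL1A1 was at 1266 CPM (1144 to 1396) and COL3A1 at 159.8 CPM (119 to 211). C7 and MGP had no UMI in them, which allows up to 11.8 CPM, and DCN was at 0 CPM (0 to 11.8), POSTN at 0 CPM (0 to 11.8) and TCF21 at 3.2 CPM (0.0809 to 17.8).

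The members were not uniform. Among 1055 genes with a mean of at least 0.5 UMIs per thinned member, the median ratio of variance to mean was 1.15 and the highest ratios were those of MALAT1, SERPINA1, MGP, DLK1, TMSB4X, APOA2, CTGF, TAC1, TIMP1 and IGF2. SERPINA1 and APOA2 are among the hepatic genes described above. MGP had 0, 1 and 107 UMIs per 4000 in the lowest, median and highest cell and was seen in 58.6%, with a ratio of 25. DLK1 had 0, 10 and 148 UMIs in 92.2% of members, while CTGF and TAC1, at 15.1 and 23.7%, were absent from most and reached 38 and 47 UMIs. The rule collagens, whose low side the rule cuts off, had ratios from 2.49 for COL3A1 to 3.35 for COL1A1.

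Members were also split by collagen share into 3 groups of 178 or 179 cells with medians of 0.283, 0.431 and 0.657% and median depths of 12328, 12256 and 12655 UMIs. SPARC went with collagen, at 568, 805 and 1164 CPM from the lowest to the highest group, as did BGN at 57.3, 84.2 and 160.2 CPM, TAGLN at 181, 284 and 413 CPM and MGP at 1102, 1427 and 2648 CPM. LUM was at 352, 448 and 656 CPM and TCF21 at 57.3, 67.9 and 91.7 CPM. C7 did not follow, at 1378, 1525 and 1412 CPM, and SFRP1 ran the other way, at 1282, 1216 and 919.8 CPM. TNNT2, at 439, 464 and 385 CPM, did not track collagen. Across the 536 thinned members, which share 1 library and 1 depth, the rank correlation with summed rule collagen was highest for SPARC at 0.35, SERPINE2 at 0.25 and IGFBP7 at 0.22 and lowest for RGS5 at -0.21, all weak.

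The relation of C7 to matrix and contractile genes was picked after the values were seen. C7 correlated across thinned members with EMILIN1 at 0.38, CCDC80 at 0.37, MDK at 0.35 and POSTN at 0.31, and with TPM1 at -0.36 and TAGLN at -0.28, but with ACTA2 at only -0.09. In the 204 WT1/TBX18 stroma cells, which took no part in that choice but share the library, the pairs other than that with ACTA2 stood at 0.34, 0.37, 0.39, 0.35, -0.30 and -0.15. In the 722 D14 cells, where C7 was at 13.8 CPM, they lay between -0.06 and 0.15.

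Grouped by C7 count per 4000 UMIs, 104 members had 0, 173 had 1 to 4, 144 had 5 to 9 and 115 had 10 or more, at median depths from 12122 to 13051 UMIs. TAGLN, an actin-binding gene of smooth muscle and activated fibroblasts, was at 514, 425, 161 and 83.1 CPM from the lowest to the highest group. ACTA2 likewise fell, at 1055, 969.9, 626 and 373 CPM, though its rank correlation with C7 over cells was only -0.09. EMILIN1, an elastic fibre protein, ran the other way at 213, 335, 487 and 636 CPM, as did CCDC80, a secreted matrix protein, at 166, 356, 524 and 699.5 CPM. COL3A1, at 2493, 2069, 2229.7 and 2438 CPM, had no such order, and TCF21 was lowest in the cells without C7, at 35.7 CPM (26.2 to 47.5) against 80.0 CPM (66.9 to 95) in the highest group.

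Other pairs, also picked after the values were seen, were read in the same cells. ACTA2 and TAGLN stood at 0.40 in the members and 0.44 in the WT1/TBX18 stroma, LUM and DCN at 0.36 and 0.15, MGP and COL9A3 at 0.33 and 0.26, MGP and IGF2 at -0.33 and -0.27, and RGS5 and LMO2 at 0.36 and 0.32. By comparison COL1A1 and COL1A2, the chains of 1 protein, stood at 0.36 and 0.24. All these values describe cells of a single library in sparse counts.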

How the data were processed

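Single-cell RNA of CCOs was measured in 3 libraries, 1 per day at D8, D14 and D21 (Chromium 3' version 2 chemistry). The authors deposited raw UMI counts of 32738 genes in all barcodes, in 1 table whose column names end in the day. Per the labels, the submitters' processing notes list Cell Ranger, Seurat 3.2.1 and hg19, and the table holds no coordinates. All values were checked to be whole and at least 0.

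Cells with over 2000 and under 7500 genes and under 10% UMIs from 13 mitochondrial genes, the limits of the study, were kept, and the rule given in the report was applied. No doublet caller was run, but the deepest 5% of cells were left out as an alternative. UMIs were summed over the cells of a class and given as CPM with exact Poisson intervals, shares with exact Clopper-Pearson intervals, and log2 differences after adding 1 count to each sum, with exact binomial intervals, all at 95%. A gene counted as higher or lower at 2-fold or more with at least 10 CPM in the higher group. Shares of cells and correlations used cells thinned to 4000 UMIs (seed 1), and no kept cell was shallower. With 1 library per day no test was possible. The calling code was run on counts drawn from the summed profile of the members, and 199 of 200 changed genes and 0 unchanged genes were called. All planted changes were larger than 2-fold and the draws held counting error only, with no spread between cells. The result therefore checks the code and does not show how accurate the calls on the real cells are.

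The members and the 28 gene lists (512 genes) were chosen with earlier results of these data known. Named genes are the list genes, those the study names for fibroblasts and epicardium, and the largest differences at 100 CPM or more (15 above and 10 below the other D21 cells, up to 8 each way otherwise), the 10 highest ratios of variance to mean, and genes said to be picked later. COL26A1, H19 and NEFL were not analysed here. Promoter sequences are from RefSeq (GRCh38.p14). Python 3.11.15, numpy 2.4.6, scipy 1.17.1 and matplotlib 3.10.9 were used.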

Additional observations from a re-analysis of the deposited data

Results flagged for a closer look

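Outside the limits on cells, 172 of 7203 D21 barcodes met every other condition of the rule, in data that no comparison above used. Of these, 158 had 2000 genes or fewer and 14 had a mitochondrial share of 10% or more. The 14 had a median of 9198 UMIs. Per 1000000 non-mitochondrial UMIs they held 3026 of COL3A1 against 2368 in the members, 2429.7 of C7 against 1496, 287 of LUM against 504 and 15.1 of TCF21 against 75.2. D21 had 1982 barcodes with 10% or more mitochondrial UMIs and a gene number within the limits, so few of them were of this kind.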

How the results depend on the processing

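No paired analysis was possible because each day had 1 library and the result comes from no test. With 1 library per day, no line but H7 and classes set by limits on counts, the intervals cover counting error only, and depth limits what can be read from genes near 10 CPM and from the 23 D8 cells. No list median of 1 or more in size and none of the genes named for the largest differences changed sign under the alternatives run for them, while 3 list medians nearer 0, for smooth muscle and pericyte, cardiac transcription factor and growth factor genes, did. The members made up 30.7% of kept D21 cells with a collagen limit of 0.1%, 10.0% with 0.5%, 33.9% with 1 WT1 or TBX18 UMI allowed, 35.3% with cells thinned before the rule, and 49.4% and 15.2% with mitochondrial limits of 5 and 20%. Against the other D21 cells 220 genes were higher and 286 lower with a filter of 50 CPM, 2159 and 2647 with none, and 28 and 384 with the 5% mitochondrial limit, and 124, 935 and 892 were higher with classes weighted equally, the other stromal classes left out and a 20% limit. Against the WT1/TBX18 stroma 9 were higher and 10 lower with 50 CPM, 149 and 211 after thinning, and 29 were lower with the KDR limit applied to it. Against the D14 cells the 50 CPM filter gave 183 and 291. With the other stromal classes left out the median log2 difference was 2.43 for collagens, 2.64 for proteoglycans, 2.42 for glycoproteins, 1.81 for collagen processing, 2.21 for mesenchymal factors, -3.37 for cardiomyocyte, -4.49 for hepatic, 2.23 for cartilage and -3.02 for immune genes. With the 5% mitochondrial limit it was 0.57 for collagens, 0.53 for glycoproteins, 0.31 for collagen processing, 0.12 for receptors, 0.31 for mesenchymal factors, 0.16 for HOX, -1.17 for cardiomyocyte, -2.32 for hepatic and -2.27 for dividing cell genes, and thinning gave -3.96 for hepatic genes. These alternatives change the cells or genes compared by construction, and beyond that the cause was not tested. The other 83 list medians and 41 shares or counts moved less, and of single genes 186 values moved past their interval and 277 did not.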

Other observations

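Several genes outside the lists, picked after their values were seen, were detected in only part of the thinned members. At these levels a cell without such RNA and a cell in which it was not caught cannot be told apart. COLEC11, a collectin of innate immunity, was at 313 CPM in the members, 378 CPM in the WT1/TBX18 stroma, 24.6 CPM in the cardiomyocyte gate and 25.1 CPM in the D14 cells of the same rule, and was seen in 41.2% of thinned members and 1.78% of hepatic gate cells. CCL21, a chemokine better known from lymphatic vessels, was at 132 CPM in the members, 152 CPM in the WT1/TBX18 stroma, 22.8 CPM in the endothelial gate and 1.91 CPM in the D14 cells, in 28.2% of thinned members. TFPI2 was at 283 CPM against 8.10 CPM at D14. LMO2, a factor of blood and vessel progenitors, was at 145 CPM in the members, 109 CPM in the endothelial gate and 299 CPM in the D14 cells.

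SRPX, a sushi-repeat surface protein gene, was at 363 CPM in the members, 168 CPM in the WT1/TBX18 stroma and 10.5 CPM at D14. SLN, an inhibitor of the sarcoplasmic calcium pump known from atrial muscle, was at 99 CPM in the members against 3.27 CPM in the cardiomyocyte gate, from 7.09% of thinned members. The other stromal classes also held SLN, at 51.4 CPM in the dividing, 29.3 CPM in the KDR and 26.6 CPM in the WT1/TBX18 stroma. In the D14 cells of the same rule it was at 22.3 CPM. VIM, the intermediate filament of mesenchyme, was seen in 99.4% of thinned members at 3947 CPM.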
